A study of Mus musculus with 6 samples.

Results

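The genes described here encode the proteins of the mitochondrial ribosome. Their members are the protein-coding genes of the deposited table whose symbol starts with Mrpl or Mrps followed by a digit, and the rule found 77 of the 33573 genes of the table. Of these, 48 carry an Mrpl name and 29 an Mrps name. All 77 had enough counts to be tested, among 18520 genes tested in all.

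Messenger RNA of 3 tumors and of 3 colon tissues from C57BL/6 mice was sequenced. The samples were labelled with the numbers 2, 4 and 20 in both tissues. Colorectal cancer had been induced with azoxymethane (AOM), a carcinogen, and dextran sodium sulfate (DSS), which inflames the colon. The colon tissue came from the same tumor-bearing mice, so both groups carried the AOM/DSS treatment and neither is untreated tissue. The study's methods describe male mice for this model, and the samples were frozen pieces of tissue, although the labels name cell types.

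Mitochondria hold their own ribosomes, which translate the few messenger RNAs of the mitochondrial genome into core subunits of the respiratory chain and of ATP synthase. All proteins of these ribosomes are encoded in the nucleus, translated in the cytosol and imported. The small subunit reads the messenger RNA, the large subunit joins the amino acids, and many of the proteins have no counterpart in bacterial ribosomes.

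The libraries held between 16995481 and 20789620 counts. The 10 smooth muscle markers summed to between 665 and 1352 counts per 1000000 (CPM) in the tumor libraries and to between 10480 and 10940 in the colon libraries, and all 10 were lower in tumor. The 12 epithelial markers summed to between 10220 and 11900 CPM in tumor and to between 10540 and 11730 in colon. Single epithelial markers were less even, with log2 changes from colon to tumor between -2.35 and 4.82. Of the 12, 2 were called higher and 0 lower, and 3 differed by at least 2-fold. Leukocyte markers summed to between 255 and 326 CPM in tumor and to between 135 and 186 in colon, with 5 of the 10 higher and 2, the B cell genes Ms4a1 and Cd79a, lower. The part of this makeup in the results below was not tested, and in bulk tissue fewer cells of a type and less RNA per cell cannot be told apart. CPM values were scaled by the trimmed mean of M values (TMM), unless another scale is named.

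The mitochondrial ribosomal protein genes differed little between tumor and colon. Of the 77 members, 0 were higher and 5 were lower in tumor at an adjusted p below 0.05 (edgeR quasi-likelihood test, Benjamini-Hochberg adjustment over all genes tested). Over all genes tested, 16.1% were called higher and 16.1% lower. At an unadjusted p below 0.05, 1 member was higher and 13 were lower, beside 4100 and 4010 of the 18520 genes. DESeq2 and limma-voom also called 0 members higher, and they called 9 and 4 lower. Of all genes tested, DESeq2 called 18% higher and 19% lower, and limma-voom 15.6% and 16.2%. The 5 called genes were Mrpl9, Mrps23, Mrpl51, Mrps31 and Mrpl42, and their levels in colon were between 1.26 and 1.38 times those in tumor.

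The sizes of the differences were small for every member. The log2 change from colon to tumor lay between -0.57 in Mrps6 and 0.28 in Mrpl33, and 0 of the 77 members differed by 1.5-fold or more. Of all genes tested, 39.9% differed by at least 1.5-fold and 24.2% by at least 2-fold. Among the 9903 genes with a mean level in the range of the members, 7.23 to 97.9 CPM, 31.9% differed by at least 1.5-fold and 33.6% were called in either direction, against 6.49% of the members. The interquartile range of the log2 change was -0.24 to 0.09 over the members and -0.48 to 0.40 over all genes tested. In 74 members the 95% interval of the log2 change stayed within 2-fold in both directions, and the exceptions were Mrpl14, Mrps6 and Mrps36. Over all members these intervals lay between -1.07 and 0.71.

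**Figure D1:**
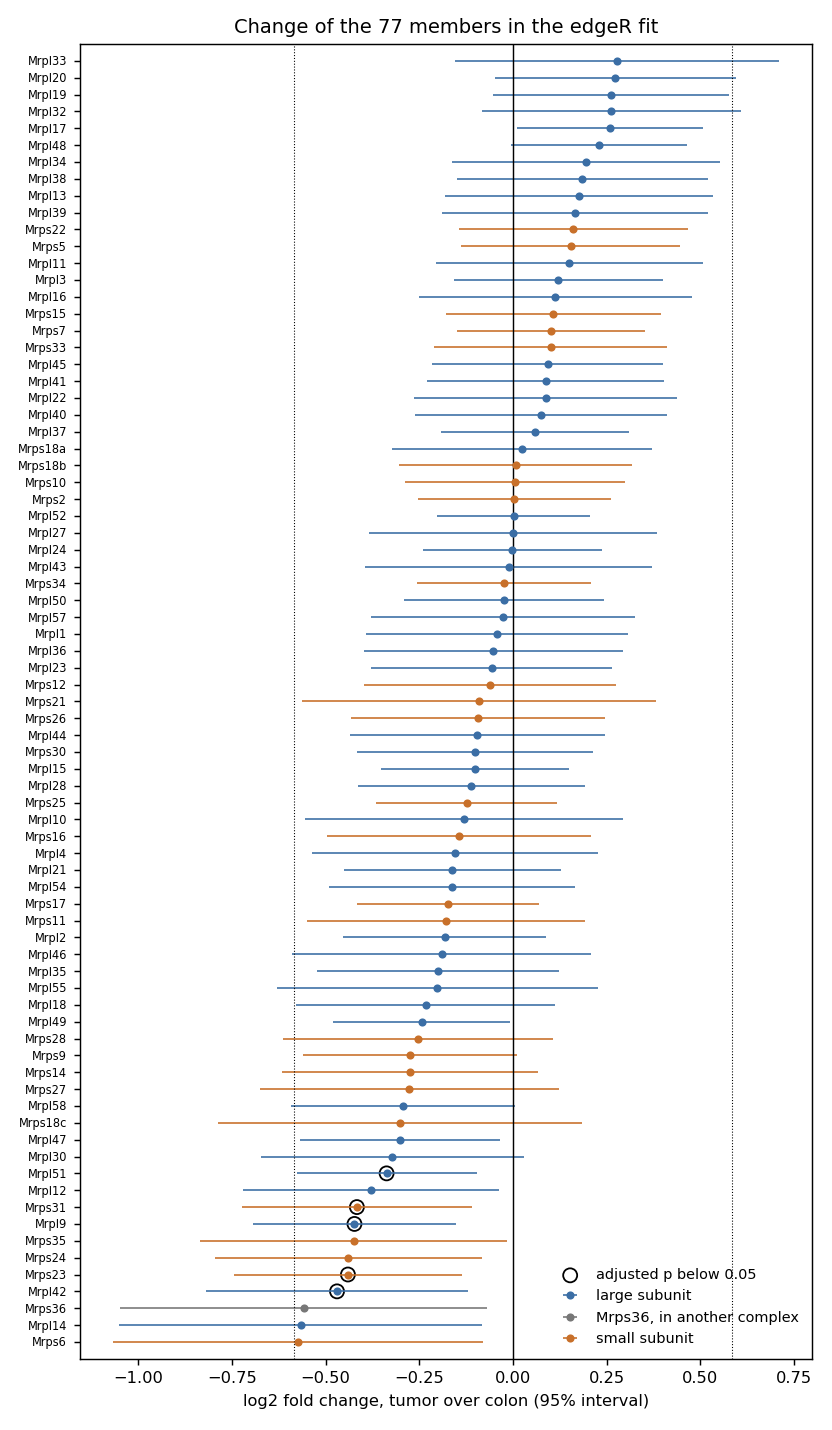
Log2 fold change from colon to tumor of each of the 77 members (points) with its 95% interval from the edgeR fit (lines), ordered by size, with circles around the 5 members at an adjusted p below 0.05. Dotted lines mark a 1.5-fold difference; every point lies between them, with Mrpl33 highest at 0.28 and Mrps6 lowest at -0.57.

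**Figure D2:**
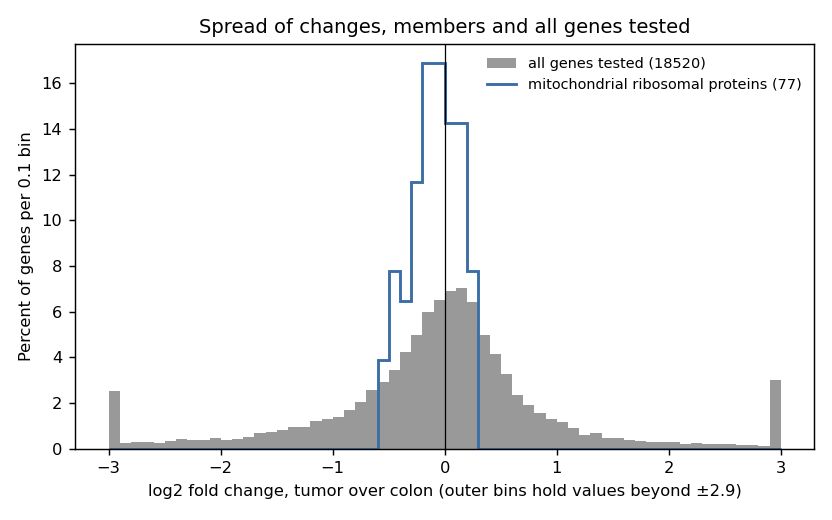
Percent of genes in each bin of 0.1 of the log2 fold change, for the 77 members (blue line) and for all 18520 genes tested (grey bars, whose outermost bins hold all values beyond the axis). The members fill only the bins from -0.57 to 0.28, while the interquartile range of all genes reaches from -0.48 to 0.40.

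The members' median was below 0 with TMM, with DESeq2's size factors, and with upper quartile and epithelial scaling of the counts. No fit scaled the counts to the table's total alone. On the log2(FPKM) scales the members' median was above 0, where the library scaling, the measure, the pseudocount and the model differ together. With TMM scaling the median log2 change of the members was -0.09, with 29 members above 0 and 48 below, and that of all genes tested was 0.01. On log2(FPKM + 1) the members' median was 0.028 and that of all genes 0.09, so on both scales the members lay slightly under all genes. Without tumor replicate 2 the members' median was -0.01 and without colon replicate 2 it was -0.15. The summed level of the members gave the same picture. As CPM of the table's total count they summed to 2593, 2802 and 2830 in the tumor libraries 2, 4 and 20 and to 2567, 2756 and 2729 in those of colon, which is between 0.257% and 0.283% of all counts in every library. These ranges overlapped, and the tumor mean over the colon mean was 1.02. After TMM scaling the sums were 2634 ± 159 in tumor and 2804 ± 151 CPM in colon (SD, n = 3), still with overlapping ranges and a ratio of 0.940. Within the numbers 2, 4 and 20 the ratio was 0.936, 0.929 and 0.954 after TMM scaling and 1.01, 1.02 and 1.04 on the table's total, so its direction depended on the scaling.

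The lower genes came from both subunits. Mrpl9 encodes a protein of the large subunit with a bacterial counterpart, L9. It had 46.6, 50.5 and 53.0 CPM in the tumor libraries 2, 4 and 20, and 67.2, 73.9 and 60.2 CPM in the colon libraries of the same numbers. All 3 tumor libraries were below all 3 colon libraries. The means were 50.04 ± 3.22 and 67.1 ± 6.86 CPM (SD, n = 3), a log2 change of -0.42 ± 0.11 (SE; edgeR adjusted p = 0.0287). With the replicate block, which compares tissues within each number, the adjusted p was 0.0527. The gene (ENSMUSG00000028140) lies on the plus strand of GRCm39 at chr3:94350625-94358437, where 598 bases overlap Oaz3 on the opposite strand, and whether the counting used strand is not given.

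Mrps23 encodes a protein of the small subunit without a bacterial counterpart. It had 29.4, 33.5 and 35.2 CPM in tumor, and 39.7, 44.4 and 49.0 CPM in colon, in the order 2, 4 and 20. The groups did not overlap, and each tumor library was below the colon library of its own number. The log2 change was -0.44 ± 0.13 (edgeR adjusted p = 0.0376, and 0.0334 with the replicate block). Mrps23 (ENSMUSG00000023723) lies at chr11:88095214-88102333 on the plus strand of GRCm39.

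Mrpl51, in the large subunit, is also specific to mitochondria. Its levels were 43.7, 43.3 and 49.4 CPM in tumor and 58.0, 55.1 and 59.3 CPM in colon, in the order 2, 4 and 20. The lowest colon library stood above the highest tumor library. The log2 change was -0.34 ± 0.10 (edgeR adjusted p = 0.0417, and 0.0552 with the replicate block), the smallest of the 5 called. The gene (ENSMUSG00000030335) lies at chr6:125168764-125173232 on the plus strand of GRCm39.

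Mrps31, another mitochondrion-specific protein of the small subunit, had the most even colon values. These were 28.1, 28.4 and 28.01 CPM, against 19.4, 20.2 and 23.7 CPM in tumor. No tumor library reached the colon level. The log2 change was -0.42 ± 0.13 (edgeR adjusted p = 0.0460, and 0.0721 with the replicate block). The gene (ENSMUSG00000031533) lies at chr8:22901377-22919681 on the plus strand of GRCm39.

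Mrpl42, a mitochondrion-specific protein of the large subunit, showed the largest of the called differences. It had 31.3, 40.7 and 36.003 CPM in tumor and 42.5, 52.2 and 54.9 CPM in colon. The groups did not overlap, although tumor replicate 4 and colon replicate 2 stood only a little apart. The log2 change was -0.47 ± 0.15 (edgeR adjusted p = 0.0484, and 0.0324 with the replicate block). The gene (ENSMUSG00000062981) lies at chr10:95316667-95337802 on the minus strand of GRCm39.

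These calls were close to the threshold. With the replicate block 5 members were again called lower, beside 15.3% of all genes tested. Of these 5, Mrps23 and Mrpl42 were among the 5 above, and Mrpl14, Mrps24 and Mrps36 were the others. No member was called when tumor replicate 2, tumor replicate 20 or colon replicate 4 was left out. In these fits 12.2%, 10.4% and 9.94% of all genes tested were called lower, against 16.1% with all libraries. The count of members was 2 with tumor replicate 4 left out, 6 with colon replicate 2 left out and 1 with colon replicate 20 left out. Beside these counts, 15.4%, 14.1% and 11.1% of all genes tested were called lower. When libraries were scaled to the epithelial markers, the 1 member called was Mrpl9, beside 14% of all genes tested called lower.

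**Figure D3:**
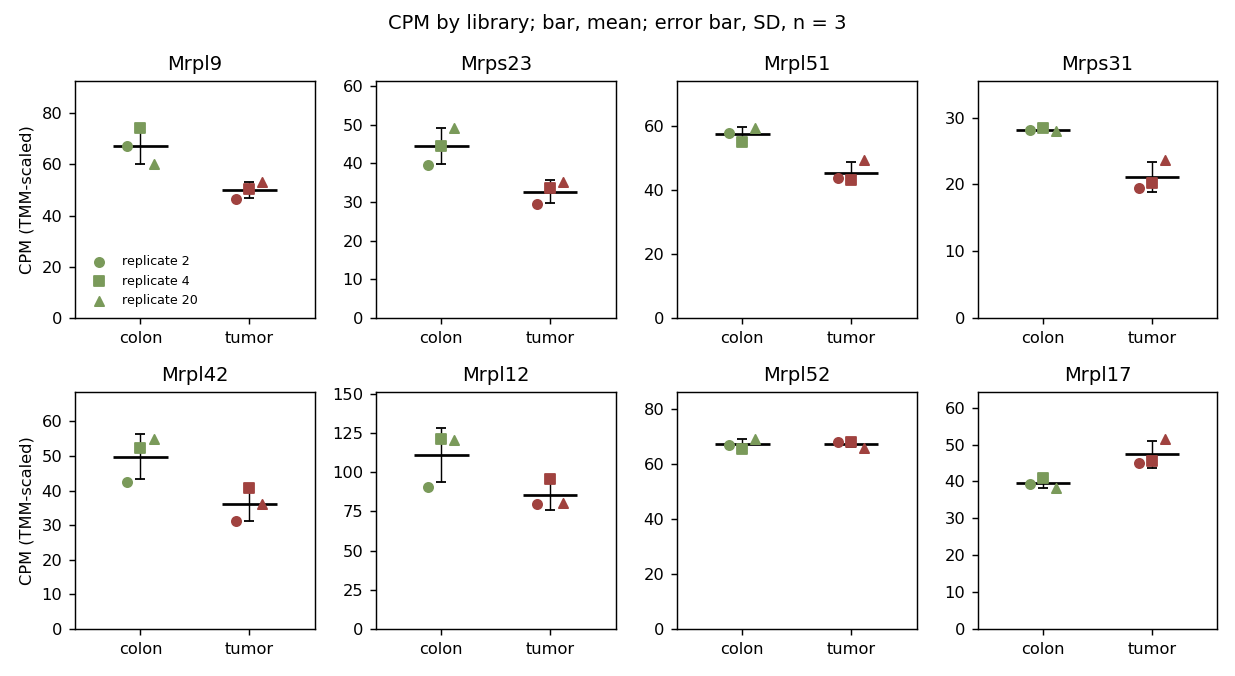
TMM-scaled CPM of 8 members in each colon and tumor library (markers, by replicate number) with the mean (bar) and SD (error bar, n = 3), on axes that start at 0. Mrpl9, Mrps23, Mrpl51, Mrps31 and Mrpl42 show tumor below colon without overlap, Mrpl12 overlaps, Mrpl52 is level at 65.6 to 69.0 CPM, and Mrpl17 is higher in all tumor libraries.

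The start regions of these genes are shown because promoters of nuclear genes for mitochondrial proteins are known for sites of NRF1, of the ETS factor GABP and of YY1, and the members called lower can be set beside Mrpl17 and Mrpl52. Each line runs from 150 bases before to 50 bases after the start, from RefSeq on GRCm38.p6, a different build from that of the gene positions above. Capitals mark matches on either strand to GCATGCGC (NRF1 core), CCGGAAG (ETS core), AAGATGGC (YY1 core) or CCAAT. The windows are chr3:94443186-94443385 (plus strand) for Mrpl9, chr11:88204238-88204437 (plus) for Mrps23, chr6:125192050-125192249 (plus) for Mrpl51, chr8:22411190-22411389 (plus) for Mrps31, chr10:95501900-95502099 (minus) for Mrpl42, chr7:105811038-105811237 (minus) for Mrpl17 and chr14:54426759-54426958 (plus) for Mrpl52.
Mrpl9: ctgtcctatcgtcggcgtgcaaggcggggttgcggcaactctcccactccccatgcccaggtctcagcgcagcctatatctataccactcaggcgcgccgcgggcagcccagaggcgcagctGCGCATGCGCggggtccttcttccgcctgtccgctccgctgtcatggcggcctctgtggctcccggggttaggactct
Mrps23: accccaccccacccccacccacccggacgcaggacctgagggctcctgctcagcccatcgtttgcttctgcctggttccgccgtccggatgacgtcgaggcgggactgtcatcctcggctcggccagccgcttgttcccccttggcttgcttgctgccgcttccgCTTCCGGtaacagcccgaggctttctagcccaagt
Mrpl51: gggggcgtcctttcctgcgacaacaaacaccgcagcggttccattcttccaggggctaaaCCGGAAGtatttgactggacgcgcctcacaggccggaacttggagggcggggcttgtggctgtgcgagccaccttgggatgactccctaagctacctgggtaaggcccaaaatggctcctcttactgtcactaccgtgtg
Mrps31: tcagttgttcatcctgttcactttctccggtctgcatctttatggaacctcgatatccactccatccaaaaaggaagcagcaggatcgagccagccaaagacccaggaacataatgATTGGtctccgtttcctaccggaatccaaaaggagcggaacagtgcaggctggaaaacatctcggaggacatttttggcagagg
Mrpl42: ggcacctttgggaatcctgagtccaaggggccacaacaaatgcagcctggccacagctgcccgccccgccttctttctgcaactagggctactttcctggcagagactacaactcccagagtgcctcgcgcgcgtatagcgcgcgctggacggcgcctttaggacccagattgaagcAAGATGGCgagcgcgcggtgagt
Mrpl17: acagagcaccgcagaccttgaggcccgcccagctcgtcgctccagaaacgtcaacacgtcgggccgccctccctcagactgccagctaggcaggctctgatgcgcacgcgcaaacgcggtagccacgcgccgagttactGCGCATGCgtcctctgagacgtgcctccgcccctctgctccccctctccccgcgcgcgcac
Mrpl52: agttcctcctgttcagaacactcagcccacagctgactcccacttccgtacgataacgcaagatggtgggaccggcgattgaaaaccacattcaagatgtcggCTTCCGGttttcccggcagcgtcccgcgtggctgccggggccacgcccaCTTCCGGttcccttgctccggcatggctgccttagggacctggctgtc

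No single core was shared by the genes called lower. The window of Mrpl9 holds overlapping NRF1 matches on both strands and that of Mrps31 a CCAAT box. Those of Mrps23 and Mrpl51 hold an ETS core, which lies after the start site in Mrps23 and before it in Mrpl51. That of Mrpl42 holds a YY1 core after the start site. Mrpl52, level in both tissues, carries a pair of ETS cores, the later of them after the start site. Mrpl17, the lowest p among members above 0, carries an NRF1 core. Over windows of 300 bases, 68 members matched 74 RefSeq promoters. The ETS core was in 33.8% of them and in 8.86% of all 32851 promoters of the same length, the NRF1 core in 10.8% and 2.71%, and the YY1 core in 16.2% and 2.75%. CCAAT was in 39.2% and 37.4%, and the letters CACGTG, the E-box that Myc binds, in 9.46% and 7.15%. The 7 member promoters with CACGTG came from only 5 members, since overlapping promoters of Mrpl2 were counted separately. A match is a description of letters and not of binding.

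Among members above 0, Mrpl17, a large-subunit protein at the tunnel through which the new peptide leaves, had the lowest p. It is named here after its values were seen, as are Mrpl14, Mrpl48, Mrps6 and Mrps24. Mrpl45 and Mrps12, given further below, are also outside the rule for members given in full. Mrpl17 had 45.0, 45.4 and 51.5 CPM in tumor and 39.3, 41.0 and 38.3 CPM in colon. All tumor libraries were above all colon libraries. The log2 change was 0.26 ± 0.11 (edgeR adjusted p = 0.102), which did not pass, while limma on log2(FPKM + 1) gave an adjusted p of 0.0396. Mrpl48, of the central protuberance, had 83.3, 94.3 and 85.0 CPM in tumor and 72.7, 79.6 and 71.7 CPM in colon, also without overlap (log2 change 0.23 ± 0.10, edgeR adjusted p = 0.123). Groups did not overlap in 5 members with tumor higher and in 15 with tumor lower, beside 25.3% and 24.2% of all genes tested.

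Mrps6, Mrpl14 and Mrps24 were lower in tumor by estimates of similar or larger size but did not pass. Mrps6, whose gene overlaps Slc5a3 on the same strand so that counts may be shared, had 9.14, 10.96 and 14.1 CPM in tumor and 14.7, 19.3 and 16.9 CPM in colon. The lowest colon library stood just above the highest tumor library, and the log2 change was -0.57 ± 0.21 (edgeR adjusted p = 0.0758). Mrpl14, a homologue of the bacterial protein L14, had 18.2, 24.9 and 21.9 CPM in tumor and 24.3, 38.3 and 33.8 CPM in colon. These groups overlapped (log2 change -0.57 ± 0.21, edgeR adjusted p = 0.0737, and 0.0306 with the replicate block). Mrps24, the homologue of bacterial S3, had 31.3, 43.5 and 39.7 CPM in tumor and 46.1, 55.6 and 53.5 CPM in colon, without overlap (log2 change -0.44 ± 0.15, edgeR adjusted p = 0.0627, and 0.0324 with the replicate block). It overlaps Urgcp on the same strand.

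By subunit, the large one counts 50 members here, since Mrps18a and Mrps30 sit in it despite their names, and the small one 26. Of the 50 large-subunit genes 0 were called higher and 3 lower, with a median log2 change of -0.03. Of the 26 small-subunit genes 0 were higher and 2 lower, with a median of -0.13 and 18 members below 0. Both medians are on the TMM scale. The summed CPM of the small over the large subunit was 0.4417, 0.4159 and 0.4354 in the tumor libraries 2, 4 and 20 and 0.4629, 0.4421 and 0.4498 in colon. The tumor values lay below the colon values by a narrow margin, and no test was run on this ratio. Of 46 members with a bacterial homologue 1 was lower, and of 31 mitochondrion-specific members 4 were lower. The background over all genes is the 16.1% given above.

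Parts of the large subunit with a known task held no calls, but they have few members, and only 6% of all 50 large-subunit members were called. The stalk recruits translation factors, and its 4 measured members, Mrpl10, Mrpl11, Mrpl12 and Mrpl54, held 0 calls. Their median log2 change was -0.15, with 3 of the 4 below 0. Mrpl12, the stalk protein that also binds the mitochondrial RNA polymerase, had 79.5, 95.7 and 80.3 CPM in tumor and 90.8, 121 and 120 CPM in colon. Tumor replicate 4 lay above colon replicate 2, so the groups overlapped. The log2 change was -0.38 ± 0.15 (edgeR adjusted p = 0.0869), and without colon replicate 2 the adjusted p was 0.0287. The 6 members of the central protuberance and the 6 around the exit tunnel held 0 calls each, with median log2 changes of 0.04 and 0.04. Mrpl45, which holds the ribosome to the inner membrane, was at 31.1 ± 1.92 CPM in tumor and 29.2 ± 3.27 in colon. At the decoding site of the small subunit, Mrps12 was at 25.4 ± 2.15 CPM in tumor and 26.5 ± 3.25 in colon (log2 change -0.06, edgeR adjusted p = 0.776).

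Members with other or disputed tasks gave the following. Mrpl58 is a peptidyl-tRNA hydrolase that frees stalled ribosomes. It had 23.1, 27.6 and 25.6 CPM in tumor and 28.8, 32.5 and 32.1 CPM in colon, without overlap (log2 change -0.29 ± 0.13, edgeR adjusted p = 0.120). Mrps36 is now known as a part of the oxoglutarate dehydrogenase complex of the citric acid cycle and was counted in neither subunit. It had 12.9, 18.6 and 16.1 CPM in tumor and 18.3, 25.1 and 26.7 CPM in colon. Tumor replicate 4 reached colon replicate 2, and the log2 change was -0.56 ± 0.21 (edgeR adjusted p = 0.0799, and 0.0432 with the replicate block).

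The family holds 3 members named after bacterial S18, of which Mrps18c was classed as its homologue and Mrps18a and Mrps18b as mitochondrion-specific. Mrps18b, in the small subunit, had a mean of 13.5 FPKM (fragments per kilobase of exon scaled to the library's total), Mrps18a, in the large subunit, 7.19, and Mrps18c, in the small subunit, 6.68. None of them passed the test. Mrps18a was at 26.8 ± 2.80 CPM in tumor and 26.4 ± 3.20 in colon (log2 change 0.02, edgeR adjusted p = 0.919), and Mrps18b at 28.2 ± 1.44 and 28.03 ± 3.23 (log2 change 0.01, edgeR adjusted p = 0.973). Mrps18c was at 6.48 ± 0.99 and 7.98 ± 0.64 CPM (log2 change -0.30 ± 0.21, edgeR adjusted p = 0.302), the lowest CPM of all members. Mrps30, in the large subunit, was at 26.5 ± 1.11 and 28.5 ± 3.39 CPM (log2 change -0.10, edgeR adjusted p = 0.601).

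Levels between members differed far more than tissues did. Mean FPKM over the 6 libraries ran from 2.13 in Mrpl33 to 63.5 in Mrpl12, a 29.8-fold range, with a median of 12.3. FPKM divides by the exon length of each gene, so its order is not that of CPM. Mean CPM ran from 7.23 in Mrps18c to 97.9 in Mrpl12. Large-subunit genes had a median of 15.2 FPKM and small-subunit genes 9.70. Mrpl52, with 60.6 FPKM, was next to Mrpl12. It had 68.1, 68.0 and 65.8 CPM in tumor and 67.0, 65.6 and 69.0 CPM in colon, a log2 change of 0.00 with a 95% interval of -0.20 to 0.21 (edgeR adjusted p = 0.989). Mrpl34, a homologue of bacterial L34, had 44.5 FPKM, with 27.996, 28.7 and 29.7 CPM in tumor and 20.7, 25.8 and 28.9 CPM in colon (log2 change 0.20 ± 0.15, edgeR adjusted p = 0.363).

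At the low end by FPKM, Mrpl33, the homologue of bacterial L33, had 16.5, 15.0 and 19.8 CPM in tumor and 16.0, 14.4 and 11.9 CPM in colon. The groups overlapped (log2 change 0.28 ± 0.18, edgeR adjusted p = 0.287). Mrpl1 had 3.74 FPKM (log2 change -0.04, edgeR adjusted p = 0.852) and Mrps10 4.07 FPKM (log2 change 0.00, edgeR adjusted p = 0.980). Across the 77 members the log2 mean FPKM in tumor and colon correlated at r = 0.98, over genes that share libraries and lengths, given as a description. A member had between 118 and 2189 counts in a library.

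**Figure D4:**
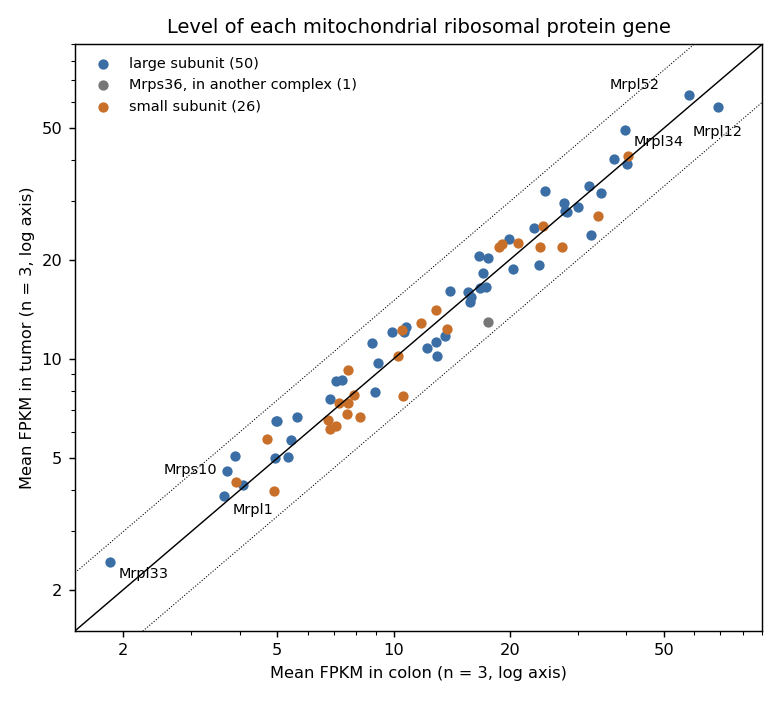
Mean FPKM of each member in tumor against colon (n = 3 each, both axes log), colored by subunit, with the line of equal levels and dotted lines at 1.5-fold. Points run along the line from Mrpl33 at 2.13 to Mrpl12 at 63.5 FPKM over both tissues.

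Within a tissue, many members shifted together from library to library. The order of the libraries over all genes was not counted. Tumor replicate 2 was the lowest tumor library in 53 of 77 members and tumor replicate 20 the highest in 48. Colon replicate 2 was the lowest colon library in 48 of 77. Both libraries numbered 2 thus lay low, and within each number the members were lower in tumor in 48, 47 and 46 of 77 for numbers 2, 4 and 20 on the TMM scale.

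Other genes of mitochondrial translation held few calls as well. The 5 ribosomal proteins under other names, among them Dap3, Ptcd3 and Aurkaip1, had 0 calls in either direction and, at an unadjusted p below 0.05, also 0, with a median log2 change of 0.16. Of 16 translation factors 1 was higher and 1 lower, 12.5% called in either direction beside 32.2% of all genes tested. Tsfm, the exchange factor of the elongation factor Tu, rose from 23.5 to 39.2 CPM (log2 change 0.74 ± 0.18, edgeR adjusted p = 0.0213). Gfm2, which splits ribosomes after termination, fell from 107 to 61.6 CPM (log2 change -0.79 ± 0.10, edgeR adjusted p = 0.00185). Of 29 genes for ribosome assembly and rRNA modification 2 were higher and 1 lower (10.3% called). The helicases Dhx30 (log2 change 0.52 ± 0.10, edgeR adjusted p = 0.00988) and Ddx28 (0.68 ± 0.17, 0.0221) rose, and Mterf4, the partner of an rRNA methyltransferase, fell (-0.59 ± 0.13, 0.0148).

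Of 20 genes for charging mitochondrial tRNAs 0 were higher and 4 lower, with a median log2 change of -0.23. The 20% called lower stood near the 16.1% of all genes tested. The lowest adjusted p were those of Fars2 (-0.55, 0.0173) and Iars2 (-0.33, 0.0276), the synthetases for phenylalanine and isoleucine. Of 20 genes for mitochondrial DNA maintenance and transcription 1 was higher and 1 lower, 10% called in either direction beside 32.2% of all genes tested. Prorp, the nuclease of mitochondrial RNase P, rose (log2 change 0.53, edgeR adjusted p = 0.0373), and Polg2, the accessory subunit of the mitochondrial DNA polymerase, fell (-1.05, 0.0153).

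Of 11 genes known to set mitochondrial gene expression 3 were higher and 2 lower, 45.5% called in either direction beside 32.2% of all genes tested. A difference of at least 1.5-fold was seen in 36.4% of them and one of at least 2-fold in 18.2%, beside 39.9% and 24.2% of all genes tested. Ppargc1b, a coactivator of mitochondrial genes, fell from 48.4 to 9.04 CPM (log2 change -2.42 ± 0.32, edgeR adjusted p = 0.00228), and Esrra, a nuclear receptor it acts with, fell as well (-0.64 ± 0.11, 0.00591). Myc rose from 35.6 to 94.3 CPM (1.404 ± 0.23, 0.00446), and so did Pprc1, a coactivator related to Ppargc1b (0.58, 0.0219). Gabpb1, a subunit of GABP, rose (0.48, 0.0430). Nrf1 (0.14, edgeR adjusted p = 0.511) and Gabpa (0.17, 0.315), whose cores are marked in the sequences above, did not pass. Of 19 genes for mitochondrial mass and the outer membrane 0 were higher and 4 lower. The 21.1% called lower stood near the 16.1% of all genes tested. These 4 were led by Cs, the citrate synthase, which fell from 578 to 330 CPM (log2 change -0.81 ± 0.10, edgeR adjusted p = 0.00175), and by Vdac3, an outer membrane channel (-0.67, 0.00595).

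**Figure D5:**
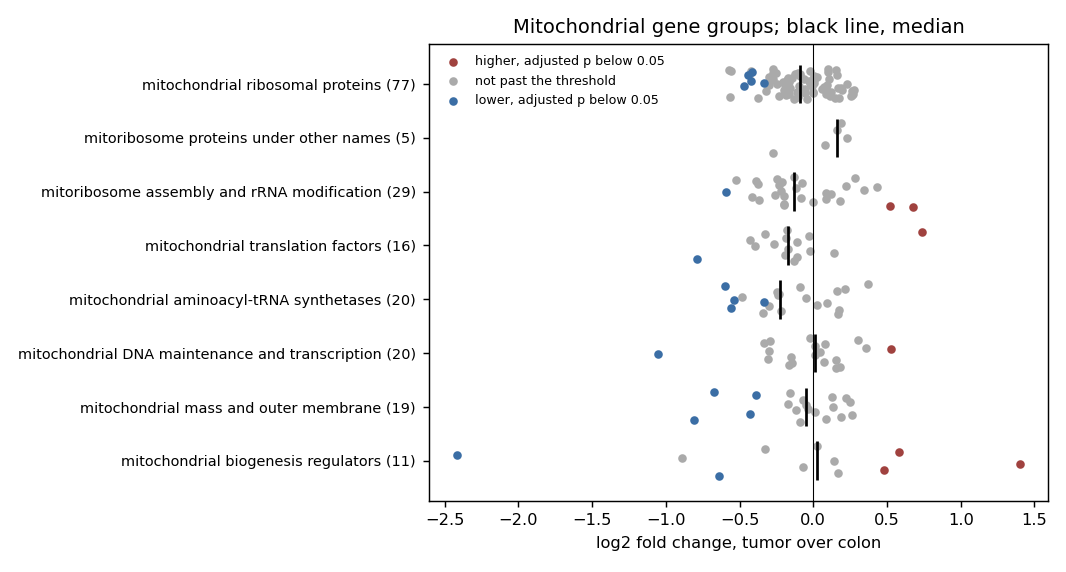
Log2 fold change from colon to tumor of each gene (points) in the 77 members and in 7 other mitochondrial lists, with the list median as a black line and color for calls at an adjusted p below 0.05. The members stay between -0.57 and 0.28, while the regulators run from -2.42 in Ppargc1b to 1.404 in Myc.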

How the data were processed

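Tissue RNA from 3 tumor and 3 colon samples was sequenced with a stranded mRNA kit. Reads were handled with cutadapt, HISAT and GRCm39 according to the submitters' processing notes. Tool versions, the counting program and whether it used strand were not given in the sources used here. Raw, unscaled fragment counts of each gene in each library were deposited by the authors. The table also holds FPKM values made by the authors, which divide the count by exon length and by the library total. Groups follow the labels, and no label says that the samples are separate animals, so the p-values cover only the spread between the 3 samples of a tissue.

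Counts were fitted with edgeR 4.0.16 in R 4.3.3 (TMM, filterByExpr, quasi-likelihood test, both tissues unpaired, Benjamini-Hochberg over 18520 genes, two-sided). SE is the log2 change over the square root of F. Alternatives (17) included DESeq2 1.42.0, limma 3.58.1 on voom or log2(FPKM + 1 or 0.1), other scalings and filters, a replicate block and each library left out. The series' design calls the tissues paired and the numbers 2, 4 and 20 are shared, so equal numbers were taken as pairs. Deviations of same-numbered libraries correlated at 0.192, 0.122 and 0.0181. Those of differently numbered libraries correlated between -0.204 and 0.125, so these values do not settle the pairing. The procedure was tested on simulated data.

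The members and all gene lists were chosen with earlier results of these data known. Members given in full were the 6 lowest adjusted p among the called in each direction, the 3 highest and 3 lowest by mean FPKM, and Mrpl12, Mrpl58, Mrps18a, Mrps18b, Mrps18c, Mrps30 and Mrps36; of other lists, the 2 lowest adjusted p in each direction. Gene groups were assigned from general knowledge. Overlaps on the genome used the table's coordinates, and start regions came from RefSeq.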

Additional observations from a re-analysis of the deposited data

How the results depend on the processing

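The count of members lower in tumor, 5 with edgeR and TMM, was 1 when libraries were scaled to 12 epithelial genes, 1 without the filter on low counts, 9 with DESeq2, 0 on log2(FPKM + 1) and 0 on log2(FPKM + 0.1). Leaving out 1 library at a time gave between 0 and 6. Of all genes tested, 16.1% were called lower in the main fit, 14% with epithelial scaling and 10.1% without the filter. DESeq2 called 19% lower, each log2(FPKM) fit 12.4%, and the fits with a library left out between 9.94% and 15.4%. The count of members higher in tumor, 0, became 1 on log2(FPKM + 1), where the gene was Mrpl17, and was 0 in each left-out-library fit. The median log2 change of -0.09 was 0.028 on log2(FPKM + 1) and 0.030 on log2(FPKM + 0.1), where the median of all genes was 0.12, and between -0.15 and -0.01 with a library left out. The summed CPM ratio of 1.02 on the table's total was 0.940 with TMM, 0.934 with DESeq2's size factors, 0.943 with epithelial scaling, and between 0.9996 and 1.049 with a library left out. The cause of these shifts was not tested. With the replicate block 5 members were lower and 0 higher, 2 of them shared with the unpaired fit. Over all genes, log2(FPKM + 1) called 3831 higher and 2295 lower, log2(FPKM + 0.1) 3579 and 2302, and edgeR without colon replicate 4 called 1905 and 1904, against 2981 and 2987. With 3 libraries a tissue, the median SE of a member was 0.14 on the log2 scale, and the smallest called difference was -0.34. Of the 77 members, 36 overlap another gene of the table, 9 of them on the same strand.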

Other observations

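Ribosomal protein genes of the mitochondrion often lay head to head with another gene. A protein-coding neighbour on the opposite strand started upstream within 1000 bases of the start, without overlap of the pair, in 18 of 77 members (23.4%) and in 1426 of 18470 protein-coding genes of the table (7.72%). Of the 18 neighbours 0 were higher and 3 lower in tumor, 14 were not called and 1 was not tested. Beside these counts, 16.1% of all genes tested were called higher and 16.1% lower. Klc4, a kinesin light chain beside Mrpl2, was lower (log2 change -0.93, edgeR adjusted p = 0.0131), as was Ptcd2 beside Mrps27 (-0.71, 0.00895) and Fau beside Mrpl49 (-0.34, 0.0458). The members beside them, Mrpl2, Mrps27 and Mrpl49, were not called, with log2 changes of -0.18, -0.28 and -0.24. Whether neighbour and member differ from each other in their change was not tested.

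The 8 members with an NRF1 core in their promoter had a median log2 change of 0.13, and the 60 without had -0.09. For the ETS core the medians were -0.01 in 25 members and -0.11 in 43, and for the YY1 core -0.12 in 12 and -0.07 in 56. These splits were made after the values were known and were not tested.

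Near-identical sequence in annotated transcripts of other genes (GENCODE M21, at least 95% over 200 bases or more) was found for 18 members, most of it in pseudogenes. The genome outside annotated transcripts was not searched. For Mrps26, matches also lay in other counted genes, the most counted being Hdac1 (202 bases, up to 2829 counts in a library). Mrps26 itself had between 506 and 709 counts, and whether reads were shared was not tested. For the other 17 members, no copy listed in the table had more than 79 counts in a library. Copies not listed there have no count here.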
